A study of Mus musculus with 6 samples.

Results

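The deposited ATAC-seq peak lists of naive CD4 T cells and of CD4 T cells after 72 h of Th17 culture were compared, using 2 of the 3 lists of the series. ATAC-seq marks accessible DNA because the Tn5 transposase inserts sequencing adapters where chromatin is open. The cells were CD4 T cells of C57BL/6 mice with no stated transgene, either left untreated or cultured with plate-bound anti-CD3ε at 0.25 µg/mL and anti-CD28 at 1 µg/mL, TGF-β at 0.1 ng/mL and IL-6 at 20 ng/mL. Each condition has 2 libraries labelled as biological replicates but 1 deposited list, so no difference below has a replicate check, and no test or p-value is given. The design holds no culture without the cytokines, so effects of activation, of TGF-β with IL-6 and of time in culture cannot be told apart. Overlapping peaks (1 bp or more in common) were joined across both lists into 77893 regions, made from 53259 naive peaks and 53926 peaks at 72 h of the 147809 peaks in all. A region with a 72 h peak alone is called gained, a region with a naive peak alone lost, and a region with both shared. A lost region therefore held no listed peak at 72 h, which is not a measurement of closed chromatin.

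Naive CD4 T cells circulate in a resting state held by factors such as FOXP1, TCF-1, LEF1 and KLF2. Engagement of the T cell receptor with CD28 activates AP-1, NFAT and NF-kB factors, and TGF-β with IL-6 then directs the cells through SMAD proteins and STAT3 to the Th17 fate. Nuclear receptors of the ROR family are factors of Th17 cells, and IL-17A and IL-17F are their signature cytokines. In bulk cells, a peak present in fewer cells and a weaker peak in each cell cannot be told apart.

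Of the 297 members of the gene lists with an annotated start window, 9 (3.03%) had a start site inside a gained region and 13 (4.38%) one inside a lost region. Over all 17492 genes with such a window the backgrounds were 3.38% and 1.7%. Of the 9, Hdac7 alone also had a naive peak over a start window. Of the 13, Cdkn2c, Dnmt3a, Egr2, Foxp1 and Tcf7 also had a 72 h peak over a start window. At Dnmt3a, Egr2, Foxp1 and Tcf7 this was another window, so that start differed and not the gene's promoters as a whole. At Cdkn2c the window of that same start had a peak in both lists. From these, 7 start windows are shown as starts where the lists differ. The first 3 of each class were chosen by 72 h score for gained regions and by width for lost regions, and Il17a was added after its values were seen. Each sequence is the RefSeq GRCm38.p6 window from 250 bases before to 50 bases after the start site, read 5′ to 3′ along the gene. Capitals mark matches on either strand to the letters of the AP-1 motif (TGANTCA), the CRE motif (TGACGTCA), the STAT motif (TTCNNNGAA), the ROR motif (AGGTCA), the NF-kB motif (GGGANTTCC) and the TATA motif (TATAAA). Gzmb encodes the protease granzyme B (chr14:56262285-56262584, minus strand). Havcr2 encodes the inhibitory receptor TIM-3 (chr11:46454681-46454980, plus strand). Il23r encodes the specific chain of the IL-23 receptor (chr6:67491806-67492105, minus strand), and Il17a lies at chr1:20730655-20730954 on the plus strand. Dnmt3a encodes a DNA methyltransferase, and the window is 1 of its 3 (chr12:3891494-3891793, plus strand), Cd247 the zeta chain of the T cell receptor complex (chr1:165788431-165788730, plus strand) and Cx3cr1 the fractalkine receptor (chr9:120068247-120068546, minus strand).
Gzmb: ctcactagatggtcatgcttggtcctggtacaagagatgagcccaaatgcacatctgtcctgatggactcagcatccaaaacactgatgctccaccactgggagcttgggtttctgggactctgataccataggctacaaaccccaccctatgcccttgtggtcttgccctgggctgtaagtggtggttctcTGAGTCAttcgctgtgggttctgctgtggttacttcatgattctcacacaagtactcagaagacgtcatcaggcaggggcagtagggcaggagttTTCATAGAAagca
Havcr2: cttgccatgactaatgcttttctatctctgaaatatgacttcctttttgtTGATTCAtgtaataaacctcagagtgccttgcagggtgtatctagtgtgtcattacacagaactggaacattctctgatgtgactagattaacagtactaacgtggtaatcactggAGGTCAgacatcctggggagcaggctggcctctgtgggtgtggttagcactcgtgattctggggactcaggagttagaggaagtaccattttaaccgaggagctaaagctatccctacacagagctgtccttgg
Il23r: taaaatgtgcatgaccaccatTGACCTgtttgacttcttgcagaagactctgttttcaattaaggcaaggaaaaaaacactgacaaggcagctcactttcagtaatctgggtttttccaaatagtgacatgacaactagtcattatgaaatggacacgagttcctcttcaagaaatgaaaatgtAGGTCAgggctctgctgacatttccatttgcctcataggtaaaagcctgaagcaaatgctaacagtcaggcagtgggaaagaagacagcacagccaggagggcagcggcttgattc
Il17a: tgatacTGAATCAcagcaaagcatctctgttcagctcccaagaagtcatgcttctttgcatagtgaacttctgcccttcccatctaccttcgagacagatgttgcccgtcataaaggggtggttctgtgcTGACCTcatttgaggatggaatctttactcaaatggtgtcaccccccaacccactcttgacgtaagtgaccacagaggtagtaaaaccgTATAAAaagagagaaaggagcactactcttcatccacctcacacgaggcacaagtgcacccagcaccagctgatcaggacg
Dnmt3a: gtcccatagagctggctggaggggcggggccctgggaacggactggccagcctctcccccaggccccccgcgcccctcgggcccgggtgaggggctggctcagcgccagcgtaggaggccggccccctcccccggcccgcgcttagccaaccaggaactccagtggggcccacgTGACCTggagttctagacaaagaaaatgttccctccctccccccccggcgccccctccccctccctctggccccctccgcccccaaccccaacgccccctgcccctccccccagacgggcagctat
Cd247: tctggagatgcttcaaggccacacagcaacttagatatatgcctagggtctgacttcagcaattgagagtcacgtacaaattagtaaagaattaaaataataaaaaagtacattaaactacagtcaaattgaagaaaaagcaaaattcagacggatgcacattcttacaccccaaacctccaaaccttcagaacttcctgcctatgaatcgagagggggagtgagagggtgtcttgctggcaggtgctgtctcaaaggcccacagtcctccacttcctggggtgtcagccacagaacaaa
Cx3cr1: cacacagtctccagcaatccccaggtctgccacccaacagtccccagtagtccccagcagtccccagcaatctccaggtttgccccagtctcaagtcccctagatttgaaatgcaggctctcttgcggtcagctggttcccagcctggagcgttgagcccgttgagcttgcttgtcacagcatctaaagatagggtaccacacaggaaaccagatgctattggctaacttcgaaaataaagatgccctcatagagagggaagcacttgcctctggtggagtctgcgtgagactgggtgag

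The Gzmb, Havcr2 and Il17a windows each held 1 AP-1 match, which started 58, 200 and 244 bases before the start site. ROR matches stood in the Havcr2 window once, in the Il23r window 2 times, in the Il17a window once and in the Dnmt3a window once. Il17a also had a TATA match that began 31 bases before the start. The Cd247 and Cx3cr1 windows held none of the 6 motifs. Among all 21238 distinct start windows, 6.99% held the AP-1 letters, 14.7% the ROR letters, 12.6% the TATA letters, 7.69% the STAT letters, 2.24% the CRE letters and 1.84% the NF-kB letters. A match is a run of letters and not a bound site.

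Across the genome the classes were of nearly equal size. Gained regions numbered 25790, or 33.1% of all regions (exact Clopper-Pearson 95% interval 32.8 to 33.4%), lost regions 25633, or 32.9% (32.6 to 33.2%), and shared regions 26470, or 34.0% (33.6 to 34.3%). Lost regions were 49.2% of the 52103 regions with a naive peak, and gained regions were 49.3% of the 52260 regions with a 72 h peak. These intervals cover counting error only. Both lists have nearly the same number of peaks, which by arithmetic ties the gained count to the lost count. Of the shared regions, 23901 joined 1 naive peak to 1 peak at 72 h, 1402 joined 1 naive peak to 2 peaks at 72 h, and 937 joined 2 naive peaks to 1.

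Shared regions were the wide and high-scoring ones. Gained peaks had a median width of 192 bp and lost peaks of 196 bp, against 436 bp for the naive width and 358 bp for the 72 h width of shared regions. Within the 72 h list, the authors' score had a median of 62 in gained regions and 105 in shared regions, and near gene starts 51 and 172. Of the narrowest 10% of naive peaks 80.2% were absent at 72 h, and of the widest 10% 2.63%. For 72 h peaks the share absent from naive cells went from 65.7% in the narrowest 10% to 4.86% in the widest 10%, and from 64.7% to 13.7% between the lowest and highest 10% by score. Among shared regions, 68.7% were narrower at 72 h, with a median ratio of 72 h to naive width of 0.861. Over all peaks the median width was 273 bp in the naive list and 239 bp in the 72 h list, and the lists covered 19.8 Mb and 17.7 Mb. Depth is unknown for both lists, and its part in these widths was not tested.

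**Figure D1:**
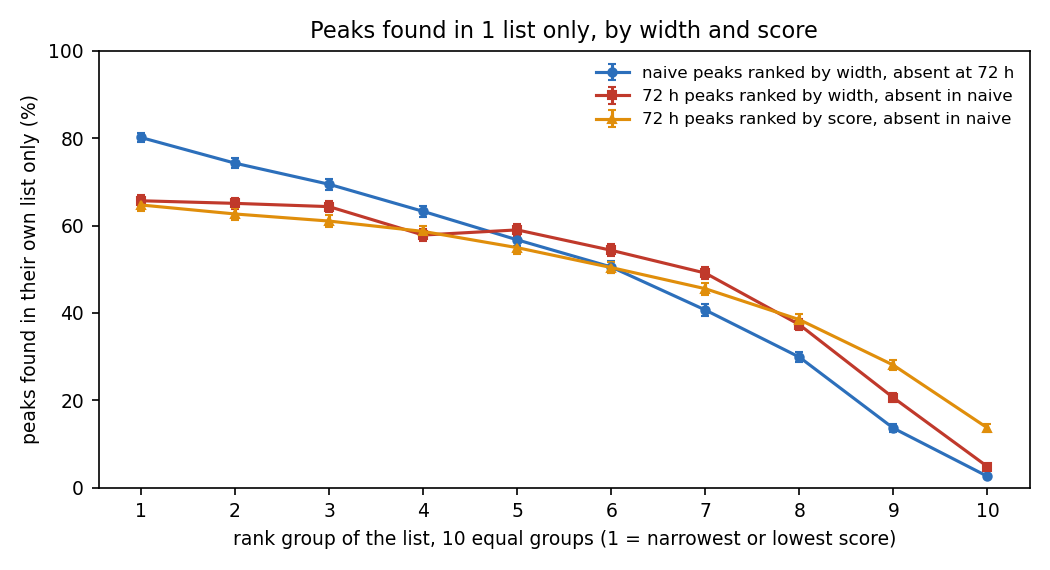
Share of peaks found in their own list only (vertical axis, percent) by rank within the list (horizontal axis, in 10 equal groups from narrowest or lowest score to widest or highest), with exact 95% binomial intervals as bars. All 3 lines fall, from 80.2% to 2.63% for naive peaks by width, from 65.7% to 4.86% for 72 h peaks by width and from 64.7% to 13.7% for 72 h peaks by score.

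Most differences lay away from gene starts. A region was placed near a start where its middle was within 1 kb of one, and this held for 9.18% of gained regions (95% interval 8.83 to 9.54%), 10.3% of lost regions (9.92 to 10.7%) and 43.4% of shared regions (42.8 to 44.0%). Inside gene bodies lay 50.1% of gained, 49.8% of lost and 29.4% of shared regions, and the others lay between genes. The median distance to the nearest start was 24115.5 bp for gained, 20183 bp for lost and 3375 bp for shared regions. Gained and lost regions differed from each other close to starts. Within 250 bp of a start there were 1066 gained and 606 lost regions, and from 250 bp to 1 kb there were 1302 gained and 2031 lost. Both contrasts turned under an alternative. The first, 63.8% gained among changed regions, turned to 19.3% with the 72 h peaks at or above their median score, which thins 1 list alone, and the second, 39.1% gained, turned to 52.1% when each list was limited to its wider peaks (from the median width up). Lost regions also sat closer to retained ones, since 18.7% of them (18.3 to 19.2%) had a shared region within 1 kb, against 8.90% of gained regions (8.56 to 9.26%). Beyond 100 kb from any start, 44.0% of regions were gained, 38.8% lost and 17.2% shared.

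**Figure D2:**
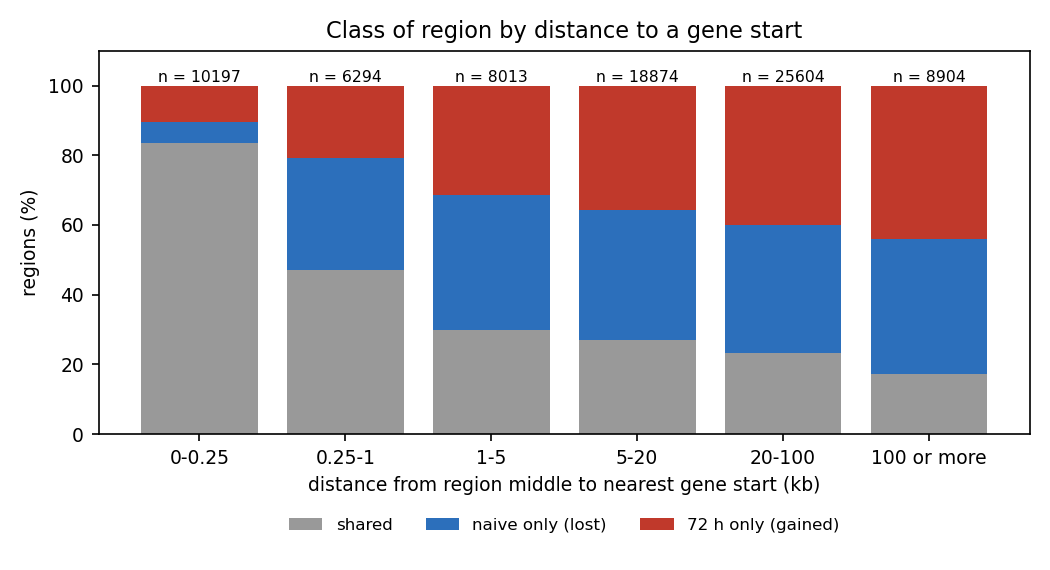
Percent of regions that were shared, lost or gained (vertical axis) by distance from the region's middle to the nearest gene start (horizontal axis, kb), with the number of regions above each bar. The shared share is 83.6% within 0.25 kb of a start and 17.2% at 100 kb or more.

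Start windows, the 300 bases around each annotated start, were mostly in the same state in both lists. Of 17492 protein-coding genes with such a window, 8652 had a peak over it in both lists and 7667 in neither. A peak at 72 h only was found for 782 genes, a background of 4.47%, and a peak in naive cells only for 391 genes, a background of 2.24%. With the 72 h peaks at or above their median score, these counts were 322 and 1023, because that setting removes peaks from 1 list alone. The Th17 lineage genes had the peak at 72 h only at 6 of their 14 members with a window, namely Il17a, Il17f, Il21, Il23r, Il1r1 and Ccr6, and in naive cells only at 0. The T cell receptor signalling genes had the reverse, with 0 at 72 h only and 4 of 16 in naive cells only, which were the CD3 chain gene Cd3d, Cd247, the kinase gene Prkcq and the phosphatase gene Ptprc, which encodes CD45. All of the cell cycle (18 of 18), glycolysis (15 of 15) and ribosomal protein genes (13 of 13) with a window had a peak there in both lists. The same held for the IRF factors (8 of 8) and the NFAT and calcium genes (10 of 10). It also held for DUSP phosphatases (9 of 9) and amino acid transporters (6 of 6). Over all genes with a window, 49.5% had the peak in both lists. Of the cytotoxic genes in the list of CD8 and NK cell markers, Gzmb, Klrk1 and Nkg7 had it at 72 h only and Gzma in naive cells only.

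Start windows that differed between the lists also differed in base composition. Windows with a peak at 72 h only (921 distinct windows) had a median GC content of 63.3% and a median of 20 CpG, against 54.5% and 9 for windows with a peak in naive cells only (538 windows). The AP-1 letters were in 10.4% of the 72 h only windows (95% interval 8.52 to 12.6%), 4.83% of the naive only windows (3.18 to 7.001%) and 3.95% of windows with a peak in both lists, but also in 9.89% of windows with a peak in neither. The letters of the TCF/LEF motif (CTTTGA) were in 9.99% of 72 h only windows and 17.1% of naive only windows, against 14.4% of all windows and 18.5% of windows with a peak in neither list. The letters of the RUNX motif (TGTGGT) were in 11.9% and 18.8%, against 14.97% of all and 18.8% of windows with a peak in neither. The naive only shares of both motifs were thus no higher than those of starts without a peak. STAT letters were in 5.21% of 72 h only and 7.62% of naive only windows, and ROR letters in 12.8% and 13.9%, both with overlapping intervals. The ETS letters (CCGGAA) were in 32.5% of windows with a peak in both lists, 9.01% of 72 h only windows and 11.3% of naive only windows. The part of base composition in these motif shares was not tested.

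Counted by gene, with a region given to each protein-coding gene whose body or 10 kb flank it met, 16485 of 21887 genes had at least 1 region. More gained than lost regions were found at 5669 genes, a background of 34.4%, and more lost than gained at 6115 genes, or 37.1%. A further 1758 genes had equal numbers and 2943 had shared regions only. Among genes with 25 or more regions, 71.7% had more lost and 24.1% more gained, whereas among genes with 1 region 12.3% had it lost and 30.2% had it gained. There were 1392 genes with a region at 72 h and 0 in naive cells, and 474 with the reverse. The share of gained regions among changed regions at all these genes was 49.5%, and this is the background for the lists below. At genes with 7 to 12 regions 52.0% had more lost and 35.5% more gained, and at those with 13 to 24 regions 57.9% and 35.1%. Genes with many regions thus leaned to losses, which the single background does not take into account. Intervals for the lists count regions as independent, although many can come from 1 gene.

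The largest excess of gained regions was at Atxn1, which encodes the transcriptional regulator ataxin-1, with 13 naive regions and 35 at 72 h (24 gained, 2 lost). Next came Dlg2, a synaptic scaffold gene, from 4 to 25, Psd3 from 3 to 20, the zinc finger factor gene Hivep3 from 9 to 25 and the kinase gene Mast4 from 5 to 21. Snd1 went from 9 to 24, Babam2 from 6 to 21, Fars2 from 4 to 19, the phosphodiesterase gene Pde1a from 1 to 16 and Tenm4 from 3 to 17. Several of these genes are best known from neurons, and regions inside a gene need not act on it. The largest excess of lost regions was at Foxp1, from 78 to 45 (18 gained, 51 lost). The integrin gene Itga9 went from 27 to 5, the ganglioside synthase gene St8sia1 from 34 to 13, the protein kinase C gene Prkce from 33 to 12 and the heparan sulfate synthesis gene Ext1 from 33 to 16. Ripor2 went from 30 to 13, Pip4k2a from 29 to 12, Ttc28 from 27 to 10, Mrtfa from 22 to 6 and Sgms1 from 32 to 17. Among genes with 0 naive regions, Ank2 and Myo16 had 10 each at 72 h, Gm1043 had 8, and Asic2 and Cnih3 had 7. Among those with 0 at 72 h, Padi3 had 7 naive regions and Gm14569, Ms4a4c, Tcstv3 and Unc93b1 had 6 each. Of these 30 genes, Babam2 alone changed sign under an alternative, to -2 with the 72 h peaks at or above their median score. That setting can turn an excess of gains but hardly an excess of losses.

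**Figure D3:**
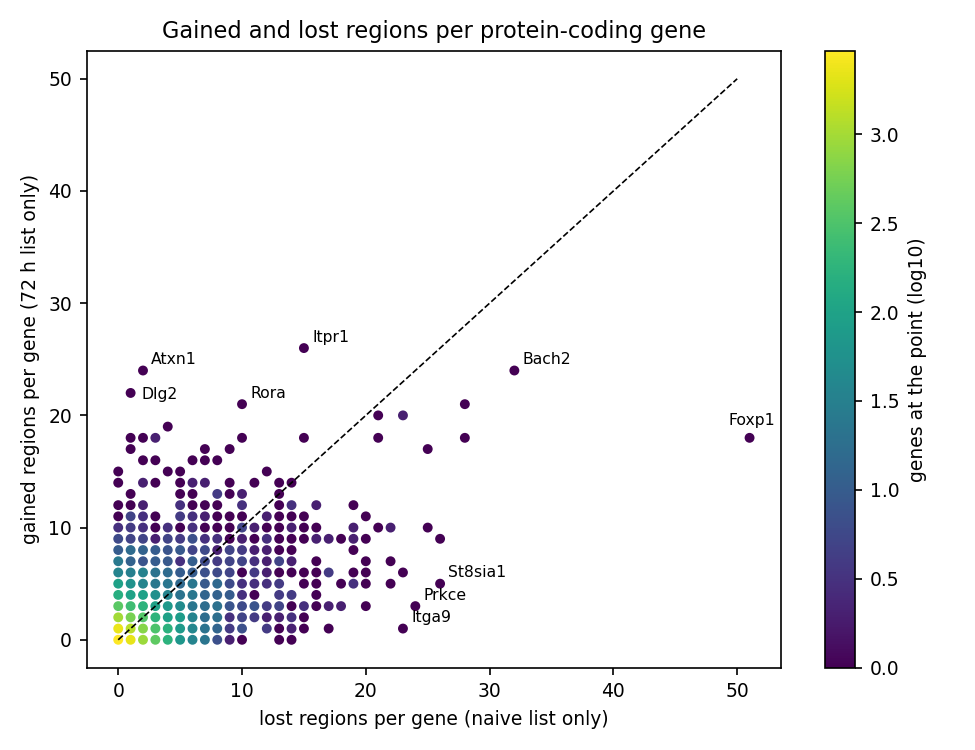
Gained regions (vertical axis) against lost regions (horizontal axis) for every protein-coding gene with a region, with colour for the number of genes at each point on a log10 scale and a dashed line where both are equal. Foxp1 lies far to the right with 51 lost and 18 gained regions, and Atxn1 and Dlg2 lie high on the left with 24 and 22 gained.

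Gains outnumbered losses at genes of the Th17 lineage, with 74 and 32 regions, so 69.8% of changed regions were gained (95% interval 60.1 to 78.4%) against 49.5% over all genes. An excess of gains was seen at 12 of the 18 members and an excess of losses at 2, against 34.4% and 37.1% of all genes with a region. The median difference was 2 against 0 over all genes. Several of the cytokine genes had no region in naive cells. Il17a had 0 naive regions and 5 at 72 h, with scores from 38 to 183, the highest at chr1:20740464-20740917, 5968 bp beyond the gene body. Il17f had 0 and 3, with the highest score of 194 at chr1:20791467-20791738, 6193 bp outside the gene. Il10, an anti-inflammatory cytokine gene, had 0 and 3, and Ccl20, which encodes the ligand of CCR6, had 0 and 2. Il21 had 2 and 4. Il22 had no region in either list, and Il9 and Csf2 each had 2 in both lists with 1 gained and 1 lost.

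Receptor and factor genes of the Th17 list held regions in naive cells too. Il1r1, the IL-1 receptor gene, went from 2 to 9 regions, and its 2 lost regions lay more than 8 kb beyond the gene while 8 of the 9 gained regions lay inside it. Ccr6, the chemokine receptor of Th17 cells, went from 1 to 6. Il23r went from 9 to 7, with 5 gained, 7 lost and 2 shared, and its gained regions included the start and the highest score of the locus, 321, at chr6:67459396-67459684 inside the gene. Rora, the gene of RORα, went from 19 to 30 with 21 gained and 10 lost, although it stood at -4 with the 72 h peaks at or above their median score. Maf went from 1 to 3, Hif1a from 5 to 8 and Ahr from 1 to 2. Cxcr6 was the other member with more lost regions, from 3 to 1. The members after the first 4 by difference were named after their values were seen.

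**Figure D4:**
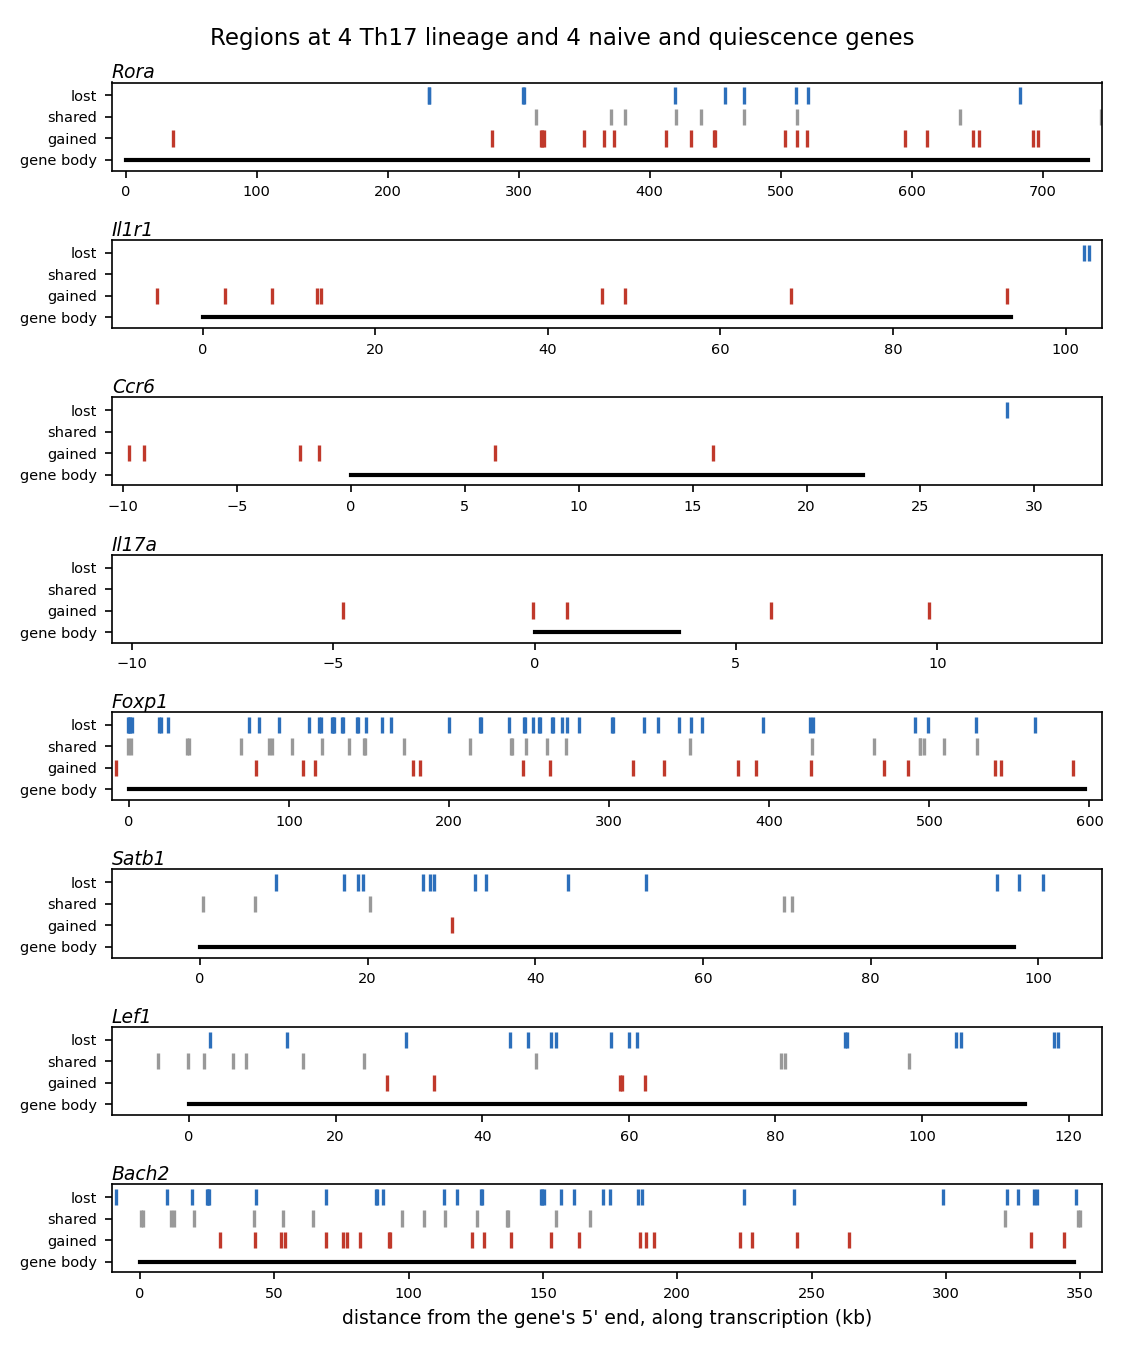
Regions at the 4 Th17 lineage genes and the 4 naive and quiescence genes with the largest differences, by distance from the gene's 5′ end along transcription (horizontal axis, kb), with each vertical bar 1 region and the black line the gene body. All 5 regions at Il17a are gained, and Satb1 has 14 lost regions and 1 gained.

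At the naive and quiescence genes 85 regions were gained and 188 lost, so 31.1% of changed regions were gained (25.7 to 37.0%). The interval counts regions as independent, although Foxp1 alone gave 51 of the lost regions. Of the 18 genes, 16 had more lost regions and 2 more gained, against 37.1% and 34.4% of all genes with a region. The median difference was -4. Beside Foxp1, Satb1, a chromatin organiser, went from 19 to 6 regions with 14 lost. Lef1, the partner of TCF-1, went from 27 to 16 with 16 lost and 5 gained, although among the wider peaks it had 1 more gained than lost. Bach2, a repressor of effector genes, went from 51 to 43, with 32 lost and 24 gained, so gains offset part of the losses. Tcf7, the gene of TCF-1, went from 9 to 4 and kept a peak at its upstream start while the region over another start at chr11:52282490-52282668 was lost. The homing receptor gene Ccr7 went from 7 to 3, and S1pr1 from 4 to 2. Il7r, the survival receptor, went from 4 to 3 with 3 shared. The members with more gained regions were Klf2, from 2 to 4, and Tsc1, from 1 to 4. Of the 14 members with a start window, 13 had a peak there in both lists, against 49.5% of all genes with a window. Other lists were alike, such as the JAK-STAT pathway genes (14 of 15) and the DNA methylation and chromatin enzymes (16 of 17). Genes after the first 4 were named after their values were seen.

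**Figure D5:**
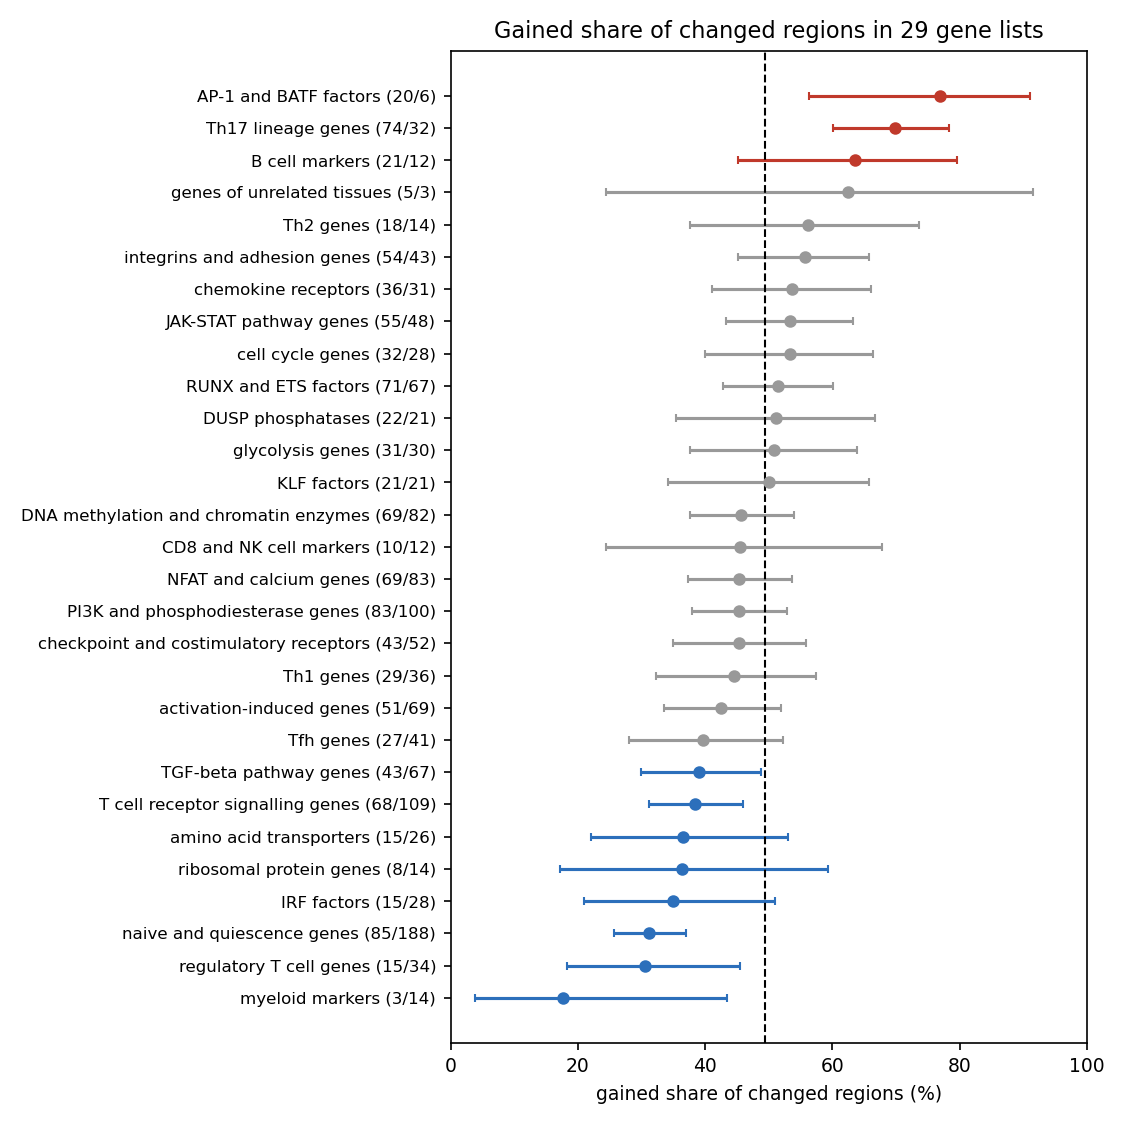
Gained share of changed regions (horizontal axis, percent) for each of the 29 gene lists, with gained and lost counts in parentheses, exact 95% binomial intervals as bars and a dashed line at the 49.5% of all genes. Red and blue mark lists at least 10 points above or below that line with 10 or more changed regions, and the AP-1 and BATF factors and the Th17 lineage genes are the highest.

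Among transcription factor families, the AP-1 and BATF factors had 20 gained and 6 lost regions (76.9% gained, 56.4 to 91.0%). Of their 11 members, 7 showed more gained and 1 more lost, against 34.4% and 37.1% of all genes with a region. Batf3 alone gave 7 of the gained regions and went from 1 to 8. Fosb went from 7 to 9, and Batf, the AP-1 partner that Th17 cells need, from 5 to 7, while the repressor Bach1 went from 8 to 6. The difference of this list from all genes was -1.35 points with the 72 h peaks at or above their median score. The IRF factors had 15 gained and 28 lost (34.9% gained, 21.0 to 50.9%). Irf4, the partner of BATF, went from 11 to 6 (2 gained, 7 lost) and Irf8 from 5 to 1. The difference of the IRF list from all genes, -14.6 points, was -1.70 points with flanks of 50 kb and -3.82 points with the 72 h peaks at or above their median score, so it then lay near the background. With flanks of 50 kb Irf4 had 3 more gained than lost. NFAT and calcium genes were near the background (69 gained, 83 lost) but members differed: the calcium channel genes Itpr1 and Itpr2 went from 29 to 40 and from 23 to 9, and the factor genes Nfatc2 and Nfatc1 from 13 to 20 and from 21 to 12. Itpr1 and Nfatc2 turned to -9 and -3 with the better-scored 72 h peaks alone. RUNX and ETS factors had 71 gained and 67 lost, with Runx2 from 10 to 22, Etv6 from 16 to 24, Runx1 from 23 to 19 and Fli1 from 16 to 12. Etv6 turned to -1 under that score setting. KLF factors had 21 gained and 21 lost, with Klf4 from 1 to 5, Klf12 from 4 to 8, Klf13 from 10 to 6 and Klf3 from 5 to 2.

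Of the genes that read the culture's cytokine signals, those of the JAK-STAT pathway lay near the background and those of the TGF-β pathway below it. JAK-STAT pathway genes had 55 gained and 48 lost regions (53.4% gained, 43.3 to 63.3%). Of the 18 members, 7 were more gained and 7 more lost, against 34.4% and 37.1% of all genes with a region. Cish, a feedback inhibitor induced by STAT5, went from 5 to 9 with 0 lost, and Ptpn2, a phosphatase that restrains JAK signals, from 4 to 10. Of the IL-6 receptor chains, Il6ra went from 8 to 11 and Il6st from 7 to 4. Il6ra turned to -2 with flanks of 50 kb, and Il6ra and Ptpn2 to -4 and -1 with the better-scored 72 h peaks alone. Stat3, the factor downstream of IL-6, had 6 and 7 regions with 4 shared. TGF-β pathway genes had 43 gained and 67 lost (39.1% gained, 29.9 to 48.9%), a difference from all genes of -10.4 points. The difference was -7.43 points without Tgfbr3 and -6.55 points under the score setting, both within 10 points of the background. The receptor genes Tgfbr3 and Tgfbr2 went from 23 to 13 and from 19 to 12, and the inhibitor genes Ski and Smad7 from 12 to 7 and from 9 to 5.

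T cell receptor signalling genes had 68 gained and 109 lost regions (38.4% gained, 31.2 to 46.0%). Of the 20 members, 13 were more lost and 4 more gained, against 37.1% and 34.4% of all genes with a region. Among genes with 13 to 24 regions, however, 57.9% were more lost and 35.1% more gained. Cd247 went from 21 to 11, the kinase gene Fyn from 26 to 19, the phospholipase gene Plcg1 from 12 to 5 and Prkcq from 21 to 16. Fyn had 3 more gained than lost among the wider peaks. The NF-kB adaptor gene Malt1 went the other way, from 1 to 6, and Lck, Vav1 and Lcp2 had equal gains and losses. These 4 were named after their values were seen. Activation-induced genes had 51 gained and 69 lost regions (42.5% gained), with Nfkb1 from 16 to 20, and Icos from 9 to 5, Nr4a1 from 9 to 5 and Nfkbia from 7 to 3. Nfkb1 turned to -6 with the better-scored 72 h peaks alone. Il2, the cytokine gene of early activation, had its start window peak in naive cells only.

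The antigen receptor loci were examined after a long run of lost regions was seen there. Lost regions outnumbered gained and shared ones at the T cell receptor α and δ V segments, the β locus and the immunoglobulin heavy chain locus. Over the genome 32.9% of regions were lost. The T cell receptor γ, kappa and lambda loci held few regions or none. On chromosome 14, 46 lost regions followed each other without a gained or shared region from 53072627 to 54168661, a stretch of 1096 kb that holds 108 T cell receptor α and δ gene segments from Trav13d-4 to Traj50. Their median width was 185 bp, close to the 196 bp of all lost regions. Over all α and δ V segments (chr14:52427967-54149201) 5 regions were gained, 47 lost and 3 shared. Over the T cell receptor β locus (chr6:40891296-41558371) 11 were gained, 33 lost and 10 shared, and over the T cell receptor γ locus 0 were gained, 1 lost and 1 shared. The immunoglobulin heavy chain locus (chr12:113256204-116009954) had 15 gained, 64 lost and 22 shared, the kappa locus 0, 3 and 2, and the lambda locus none. The V, D, J and C segments of these loci do not enter the gene counts above. A region within these spans enters them only where it meets the body or 10 kb flank of a protein-coding gene.

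Among the lists of other helper fates, those of Th1, Th2 and Tfh cells lay within 10 points of the background and that of regulatory T cells lay below it. Th1 genes had 29 gained and 36 lost regions. Ifngr1, the interferon-γ receptor gene, went from 8 to 2, and Il18r1 from 7 to 3, while Ccl5 and Cxcr3 went from 0 to 3 each. Ifng itself had none in either list. Th2 genes had 18 gained and 14 lost, with Gata3, the Th2 master regulator, from 8 to 4, Rad50, which holds the Th2 locus control region, from 1 to 5, Il4ra from 6 to 8 and Ccr4 from 4 to 6. Il5 had no region. Tfh genes had 27 gained and 41 lost, with Tox from 30 to 19, Bcl6, the Tfh master regulator, from 8 to 5, and Pdcd1, the gene of PD-1, from 4 to 7. Genes of regulatory T cells showed 15 gains and 34 losses (30.6% gained, 18.3 to 45.4%), with the ectonucleotidase gene Entpd1 from 19 to 8, Tnfrsf18 from 8 to 5, Il2ra from 12 to 10, Ctla4 from 7 to 5 and Foxp3, the defining factor, from 4 to 2. Foxp3 was named after its values were seen, and Tnfrsf18 had 1 more gained than lost among the wider peaks.

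The lists of surface receptors for migration and adhesion lay near the background, with members on both sides of it. Chemokine receptors had 36 gained and 31 lost regions (53.7% gained, 41.1 to 66.0%). Beside Ccr6 and Ccr7, Cxcr2 went from 0 to 4, and Ccr9, a gut homing receptor gene, from 2 to 5, with 5 gained and 2 lost, which turned to -2 with the better-scored 72 h peaks alone. Integrins and adhesion genes had 54 gained and 43 lost (55.7% gained, 45.2 to 65.8%). Itgav and Itga1, the αV and α1 integrin genes, went from 4 to 11 and from 3 to 11, while Itga6 went from 12 to 4 and Itgb3 from 9 to 4. Checkpoint and costimulatory receptors had 43 gained and 52 lost, with 11 of 16 members more lost, against 37.1% of all genes with a region. Havcr2 went from 2 to 6 with 0 shared, and Cd28 from 7 to 11, while Cd27, a receptor of naive and memory cells, went from 5 to 1. Cd28 turned to -1 among the wider peaks and to -4 under the score setting.

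Over all protein-coding genes 37.3% of regions were shared. The share was 61.4% at ribosomal protein genes, 52.0% at cell cycle genes and 44.0% at glycolysis genes, and at the Th17 lineage genes it was 18.5%. At the naive and quiescence genes 91 of 364 regions were shared. High shares were not particular to growth genes, since the AP-1 and BATF factors had 60.0% and the regulatory T cell genes 43.7%. Genes with few regions also had high shares, with 57.5% at genes with 1 region and 53.5% at genes with 2 to 3. Among cell cycle genes (32 gained, 28 lost), the cyclin-dependent kinase gene Cdk6 went from 13 to 20, the inhibitor gene Cdkn1b, which holds resting cells out of cycle, from 9 to 3, Cdkn1a from 4 to 7 and Mcm6 from 3 to 5. Cdk6 turned to -6 under the score setting. Glycolysis genes had 31 gained and 30 lost, with Pfkp from 10 to 13, Hk1 from 5 to 8, Hk2 from 4 to 6 and the glucose transporter gene Slc2a3 from 12 to 9. Pfkp and Hk1 turned to -5 and -3 under the score setting, and Pfkp to -1 with flanks of 50 kb. Amino acid transporters had 15 gained and 26 lost (36.6% gained, 22.1 to 53.1%). Slc7a11 went from 9 to 4, Slc38a1 from 10 to 6, Slc38a2 from 7 to 4 and Slc1a5 from 6 to 3. Ribosomal protein genes had 8 gained and 14 lost (36.4% gained, 17.2 to 59.3%), with Rpl3 and Rps14 from 5 to 3 and Rpl10a from 1 to 3.

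Regulators of signalling and chromatin were near the background as lists. PI3K and phosphodiesterase genes had 83 gained and 100 lost regions, and among them the regulatory subunit gene Pik3r1 went from 19 to 5 with 0 gained, the catalytic subunit gene Pik3ca from 5 to 10, Pde7a from 10 to 4 and Pde4d from 42 to 39. DUSP phosphatases, which switch off MAP kinases, had 22 gained and 21 lost, with Dusp14 from 1 to 5, Dusp16 from 8 to 10 and Dusp4 and Dusp5 from 7 to 4 each. DNA methylation and chromatin enzymes had 69 gained and 82 lost, with Arid1b from 36 to 27, Arid1a from 14 to 10, Hdac9 from 7 to 14 and the Polycomb methyltransferase gene Ezh2 from 1 to 5.

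Markers of other cell types were read for what else the cultures could hold. The CD4 T cell genes Cd4, Cd3e, Cd3d and Cd3g had regions in both lists, with 5 and 6 for Cd4 and 7 and 4 for Cd3e. Over all protein-coding genes 16485 of 21887 had a region, and a region in a flank can also lie at a neighbouring gene. A start window peak was in neither list for 5 of 6 B cell, 3 of 6 myeloid, 3 of 8 CD8 and NK cell and 10 of 11 unrelated tissue genes. Among all genes with a window this held for 43.8%. Of 10 B cell markers, 9 had a region, with 21 gained and 12 lost (63.6% gained, 45.1 to 79.6%). Ebf1, the B lineage factor, gave 16 of the gained regions as it went from 4 to 17. Without Ebf1 the difference from all genes was -13.8 points, and Ms4a1, which encodes CD20, had no region. Bank1 went from 5 to 2, Fcer2a from 4 to 2 and Pax5 from 1 to 3. Among 10 myeloid markers, 6 had a region, with 3 gained and 14 lost, as Itgam went from 7 to 1 and Spi1 from 6 to 2, Cebpb from 6 to 4 and Cd14 from 2 to 3. The difference of the myeloid list from all genes, -31.8 points, turned to 11.6 points among the wider peaks and 0.0563 points among the widest 30000 of each list. Csf1r, Lyz2, Adgre1 and S100a8 had none in either list. CD8 and NK cell markers had 10 gained and 12 lost, with Prf1 from 4 to 2, Gzmb from 0 to 2, Klrb1c from 2 to 0 and Klrk1 from 3 to 2. Cd8a went from 1 to 2 and Cd8b1 from 3 to 2. Of 12 genes of unrelated tissues, 7 had a region, with 5 gained and 3 lost. The part of other cells in these lists was not tested.

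Single regions with the highest 72 h scores among gained ones lay away from starts, as did most gained regions, of which 9.18% were near a start. The highest, 576, stood at chr13:108603532-108603839, 50338 bp from the body of the phosphodiesterase gene Pde4d. The next, 472, stood 26207 bp from Tet2, a gene of DNA demethylation (chr3:133436884-133437470), and regions inside Filip1, Sgce, Mfap5, Rasal2, Zbtb20 and Pde1a had scores from 407 to 464. Others lay 7429 bp from S100a10 (452) and 9651 bp from Pbp2 (413). The widest lost regions were 1511 bp inside the mitotic gene Dlgap5 (chr14:47394984-47396494), 1363 bp at 47621 bp from LOC115489673, 1318 bp inside Crim1 and 1308 bp near the start of Chl1. Others were inside Adgrl2 (1301 bp), Gabrb1 (1235 bp) and Immp2l (1178 bp), near the start of Slc14a1 (1121 bp), 3430 bp from Ccng1 (1255 bp) and 6681 bp from Mctp2 (1209 bp).

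Some shared regions differed strongly in width. Near the start of Prr5l, an mTORC2-associated gene, the peak was 100 bp wide in naive cells and 1268 bp at 72 h, a ratio of 12.7. Peaks near the starts of Igdcc3, Garem1 and Mtcl1 and near Atp2a3 had ratios of 10.9, 10.8, 9.51 and 9.54. The naive peaks of all these widened regions were 100 to 116 bp wide, and the narrowest peaks of both lists were 100 bp. In the other direction, the region nearest to Zfp948, 27178 bp away, was 1407 bp wide in naive cells and 100 bp at 72 h. Regions nearest to Map3k1, Trim36, Diaph2 and Prag1 had ratios from 0.0889 to 0.0977. They lay 182464, 72109 and 83089 bp from the first 3 genes and inside Prag1. The 72 h peaks of these narrowed regions were 100 to 114 bp wide with scores from 38 to 49, and the lowest score of that list was 30.

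Gained and lost regions were not spread evenly over chromosomes. Among the autosomes and X, the gained share of changed regions was lowest on X, at 39.2% (36.4 to 42.0%), chromosome 17, at 41.4% (39.3 to 43.5%), and chromosome 15, at 42.7% (40.7 to 44.8%), and highest on chromosome 1, at 53.6% (51.99 to 55.2%). Chromosome Y had 1 gained and 6 lost regions. On chromosome 17 the share was 44.5% among the wider peaks. Lost regions clustered more, since 57.6% had another lost region within 10 kb against 47.6% for gained regions with gained neighbours. Long runs of gained regions were nevertheless more numerous, with 112 runs of at least 10 consecutive gained regions and 31 of lost regions. Beside the T cell receptor run, 41 consecutive lost regions lay at chr17:17918001-18968270 among formyl peptide and vomeronasal receptor genes such as Fpr3 and Vmn2r91. The longest gained run, of 22 regions, lay at chr12:103548686-104473105 over the Serpina protease inhibitor genes. A run of 20 gained regions covered chr11:46454666-48767458, which holds Havcr2, Havcr1, Timd2 and Timd4 of the TIM receptor family. These runs were chosen after their values were seen.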

How the data were processed

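Naive and Th17 72 h CD4 T cells were measured by ATAC-seq, with 10000 cells per library, and 1 peak list per condition was used, grouped by the labels. The 48 h list was not used. The submitters' processing notes name MACS2 2.2.6, deepTools, SAMtools 1.9 and Bowtie2 2.3.4.1, and GRCm38 (mm10). Pooling of replicates, threshold, filters and any Tn5 shift are details not given in the sources used here. Both deposited lists hold peak coordinates, and the deposited 72 h list also a whole-number score per peak, from 30 to 1103, on a scale no header states. The naive list has no score, so scores were ranked within the 72 h list only. Running numbers in the peak names skip 4446 numbers in the naive list and 4321 in the 72 h list, and why is not known.

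Starts were made 1-based, and peaks sharing at least 1 bp were merged. Genes and starts came from RefSeq tables of GRCm38.p6. For the 4395 genes without an entry in the table of starts, either gene end stood for a start. Lists of 1 per condition allow no test, and depth is unknown. Python 3.11.15, pandas 2.3.3, numpy 2.4.6 and SciPy 1.17.1 were used. Merging of peaks, assignment of regions to genes and placement inside gene bodies were tested on simulated data with known answers. The other steps, such as start distances, start windows and motif matches, were not tested in that way. The members and lists were chosen with earlier results of these data known. Named by rule were in each list up to 4 members by the largest difference of gained and lost regions, the 10 genes with the largest difference in each direction, the 5 genes with the most regions in 1 list and none in the other, and the single regions of highest score, greatest width or largest width ratio. Alternatives changed the overlap, the peaks kept, the flanks and the start window. Single results of 2 list members are not reported here.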

Additional observations from a re-analysis of the deposited data

How the results depend on the processing

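No paired analysis was possible because each condition has 1 deposited list, and for the same reason no replicate could be left out. Under an overlap of at least 50% of the shorter peak, 50.3% of naive regions were lost and 50.4% of 72 h regions gained, and with peaks within 200 bp merged 46.4% and 48.0%. With peaks at or above the median width there were 11513 gained, 11253 lost and 15053 shared regions (42.8% lost, 43.3% gained). With the widest 30000 peaks of each list there were 13042, 13151 and 16389 (44.5% and 44.3%). Keeping the 72 h peaks at or above their median score, which by construction thins 1 list alone, gave 9533 gained and 17147 shared regions (67.2% of naive regions lost, 35.7% of 72 h regions gained). It also gave 1654 genes with more gained and 10318 with more lost regions, and 322 and 1023 genes with a start window peak at 72 h only and in naive cells only. With the width filter, 3898 genes had more lost regions. Near a start lay 12.6% of gained, 14.9% of lost and 47.1% of shared regions with a 2 kb window, and 13.3% of gained and 62.9% of shared regions with the width filter.

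Of the 11 lists at least 10 points from all genes, 7 kept their direction under all 9 alternatives and 2 kept the call as well. The naive and quiescence genes differed from all genes by -9.38 points with the score filter. Directions turned for the AP-1 and BATF factors with the score filter (-1.35 points), the ribosomal protein genes with the widest 30000 peaks (0.0563), the B cell markers without Ebf1 (-13.8), and the myeloid markers with the width filter (11.6) and the widest peaks (0.0563). The share gained among changed regions turned to 19.3% within 250 bp of a start with the score filter and to 52.1% from 250 bp to 1 kb with the width filter. On chromosomes 15, 17 and X it kept its side of 50% under all 5 alternatives for peaks.

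Of 142 named genes, 114 differed by 3 or more regions, and of these 77 kept their sign under all 8 alternatives and 17 turned under at least 1. The others turned under none but had equal gained and lost regions under at least 1. The score filter removes 72 h peaks alone, so it can turn an excess of gains but hardly an excess of losses. For genes with more lost regions it is therefore no check. Gained minus lost turned with the score filter for Babam2 and Ccr9 (-2 each), Cd28 and Il6ra (-4 each), Cdk6 and Nfkb1 (-6 each), Etv6 and Ptpn2 (-1 each), Hk1 and Nfatc2 (-3 each), Itpr1 (-9), Pfkp (-5) and Rora (-4). It turned with the width filter for Cd28 (-1), Fyn (3), Lef1 (1) and Tnfrsf18 (1), with the widest peaks for Fyn (2), and with flanks of 50 kb for Il6ra (-2), Irf4 (3) and Pfkp (-1). For the turns other than those of the score filter the cause was not tested. The depth of both lists is unknown, so how far it limits the narrow peaks that make up most gained and lost regions cannot be given.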
